A study of Mus musculus with 18 samples.

Results

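The NF-kappaB loci described here are the genes of the 5 NF-kappaB subunits, Nfkb1, Nfkb2, Rel, Rela and Relb, and 5 genes grouped as inhibitors. The group of inhibitors of the pathway is Nfkbia, Nfkbib, Nfkbie, Nfkbiz and Tnfaip3. Members of the loci are the 241 ATAC-seq peaks, of 194284 in the whole set, that overlap the body of one of these 10 genes extended by 25 kb on both sides (mouse genome build mm9, GENCODE M1 gene models). Chromatin accessibility was measured in bone marrow-derived macrophages (BMDMs) grown from 3 male, 12-week-old Il10-/- mice on the C57BL/6J background, so every group, controls included, lacked its own IL-10. Cells were left untreated or were given 500 nM (+)-JQ1, an inhibitor that keeps BET bromodomain proteins off acetylated histones, or 10 ng/mL IL-10, an anti-inflammatory cytokine, for 12 hours. LPS, the bacterial cell wall component that activates Toll-like receptor 4, was then added at 50 ng/mL for 4 hours, or PBS was added in its place. The 6 groups of 3 libraries are called unstimulated, (+)-JQ1, IL-10, LPS, LPS + (+)-JQ1 and LPS + IL-10. The study's methods also name a vehicle control for the 12-hour step, whereas the sample titles call the LPS group untreated. The series' design text calls the samples biologically matched, and libraries with the same replicate number were taken as matched.

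NF-kappaB proteins are dimers of Rel-family subunits. In resting macrophages they are held in the cytoplasm by inhibitors of the IkappaB family, which include the products of Nfkbia, Nfkbib and Nfkbie. LPS makes the IkappaB kinase complex mark these inhibitors for destruction, and the freed dimers enter the nucleus and activate inflammatory genes, among them genes of the pathway itself. Nfkb1 and Nfkb2 encode the precursors p105 and p100, which are processed to p50 and p52 and also act as inhibitors in their unprocessed form. Rel, Rela and Relb encode the subunits c-Rel, p65 and RelB, which carry the activation domains. Nfkbiz encodes the nuclear protein IkappaB-zeta, which works with p50 dimers on a subset of LPS-responsive genes, and Tnfaip3 encodes the ubiquitin-editing enzyme A20, which shuts down signaling upstream of the kinase. In the totals by role below, Nfkbiz is counted with the inhibitor loci by its IkappaB name.

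The peaks were not spread evenly over the loci. Nfkb1 held 48 peaks, Rel 30, Relb 27, Rela 23, Tnfaip3 23, Nfkbiz 22, Nfkbib 20, Nfkbia 19, Nfkbie 18 and Nfkb2 11. Of the 241, 64 were in the authors' promoter class and 177 in their distal class. For 163 peaks the closest annotated start was that of the NF-kappaB gene itself, and for the other 78 it was that of a neighboring gene. Each peak is named here by its gene and by the distance in kb from the gene's start to the center of the peak, with positive values downstream in the direction of transcription.

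To show what the sites look like, 50-base windows are given around matches to the kappaB consensus, the DNA pattern bound by NF-kappaB dimers, in peaks at or near gene starts and within genes. All are reference sequence of the forward strand of mm9, printed 5′ to 3′, with the match on either strand in capitals.
Nfkb2 +0.4 kb, chr19:46379168-46379217: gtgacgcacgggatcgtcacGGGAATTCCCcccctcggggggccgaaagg
Rel +0.3 kb, chr11:23671032-23671081: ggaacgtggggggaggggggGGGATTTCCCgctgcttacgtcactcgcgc
Rel +17.0 kb, chr11:23654398-23654447: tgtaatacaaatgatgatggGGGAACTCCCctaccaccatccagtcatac
Nfkb1 +20.8 kb, chr3:135333714-135333763: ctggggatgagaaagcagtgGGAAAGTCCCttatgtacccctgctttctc
Nfkbia +0.8 kb, chr12:56592924-56592973: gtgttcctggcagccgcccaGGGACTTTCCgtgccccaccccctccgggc
Nfkbie +1.2 kb, chr17:45694519-45694568: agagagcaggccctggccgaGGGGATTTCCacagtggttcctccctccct
Tnfaip3 +6.5 kb, chr10:18728622-18728671: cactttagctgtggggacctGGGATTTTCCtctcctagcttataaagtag

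Longer sequences are given for 4 peaks on which the comparisons turn. These are the central 300 bases of the Nfkbia peak with the greatest gain of accessibility after LPS at that locus, of the Tnfaip3 peak with the greatest gain among all 241 peaks, of the Rel peak that lost most with IL-10, and of an intronic Nfkb1 peak that lost accessibility with both treatments. Capitals mark kappaB matches and matches on either strand to GGAAGT, a pattern of ETS factors such as the macrophage factor PU.1.
Nfkbia +8.1 kb, chr12:56585413-56585712: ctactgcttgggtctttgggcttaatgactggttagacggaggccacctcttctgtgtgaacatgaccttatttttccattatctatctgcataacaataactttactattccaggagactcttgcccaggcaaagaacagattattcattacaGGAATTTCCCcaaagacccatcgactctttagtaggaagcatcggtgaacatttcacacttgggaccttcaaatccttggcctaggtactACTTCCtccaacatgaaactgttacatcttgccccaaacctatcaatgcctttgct
Tnfaip3 +17.6 kb, chr10:18717671-18717970: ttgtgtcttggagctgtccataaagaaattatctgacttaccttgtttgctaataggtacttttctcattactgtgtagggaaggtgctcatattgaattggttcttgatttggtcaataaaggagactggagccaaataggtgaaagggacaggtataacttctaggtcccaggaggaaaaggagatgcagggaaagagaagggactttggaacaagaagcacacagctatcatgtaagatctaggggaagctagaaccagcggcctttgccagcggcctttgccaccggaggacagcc
Rel +43.2 kb, chr11:23627589-23627888: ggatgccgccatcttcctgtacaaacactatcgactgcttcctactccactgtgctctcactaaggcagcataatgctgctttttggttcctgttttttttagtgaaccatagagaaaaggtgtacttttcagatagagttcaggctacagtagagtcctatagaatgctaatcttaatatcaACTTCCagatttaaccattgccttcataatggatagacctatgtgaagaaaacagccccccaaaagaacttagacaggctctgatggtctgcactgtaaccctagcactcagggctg
Nfkb1 +42.0 kb, chr3:135312329-135312628: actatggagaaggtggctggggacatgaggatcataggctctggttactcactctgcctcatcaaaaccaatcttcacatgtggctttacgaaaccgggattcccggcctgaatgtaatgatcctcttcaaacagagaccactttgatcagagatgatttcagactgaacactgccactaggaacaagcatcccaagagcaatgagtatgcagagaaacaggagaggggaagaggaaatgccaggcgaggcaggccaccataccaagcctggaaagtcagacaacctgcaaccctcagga
The Nfkbia +8.1 kb sequence held a kappaB match and an ETS match, the Rel +43.2 kb sequence held an ETS match, and neither pattern was found in the remaining ones. No kappaB match was found anywhere in the whole peaks Tnfaip3 +15.8 kb, +17.6 kb, +21.8 kb and +24.9 kb. Most member peaks had none, since 65 of the 241 held a match over their whole length.

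The libraries held between 12020526 and 25908198 reads in peaks, and all 241 member peaks passed the filter on low counts. The TMM scaling factors were 1.04 to 1.24 in the unstimulated libraries and 0.896 to 1.05 in all others. All 7 of 7 macrophage markers had a peak at their promoter, with a summed level of 94.2 to 143 CPM in the unstimulated, 144 to 159 in LPS, 178 to 185 in LPS + (+)-JQ1 and 152 to 175 in LPS + IL-10 libraries. The B cell and T cell markers summed to 3.87 to 8.45 and 4.42 to 9.5 CPM, and Cd3d, Cd3e and Cd3g had none. Promoter peaks of 2 of 3 fibroblast markers summed to 40.3 to 44.3 CPM in LPS, 33.5 to 37 in LPS + (+)-JQ1 and 31.5 to 37.1 in the unstimulated libraries, and those of 2 of 2 epithelial markers to 4.48 to 8.1 CPM. Promoter peaks were present at 3 of 4 neutrophil markers, with 26 to 33.9 CPM in the unstimulated libraries and 44.5 to 51.5 CPM in LPS + IL-10, against 37.8 to 42.5 CPM in LPS. The part of these marker shifts in the results was not tested. LPS + (+)-JQ1 replicate 1, which with 13619436 reads was the shallowest LPS-stimulated library, stood above replicates 2 and 3 of its group at many of the peaks described below.

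**Figure D1:**
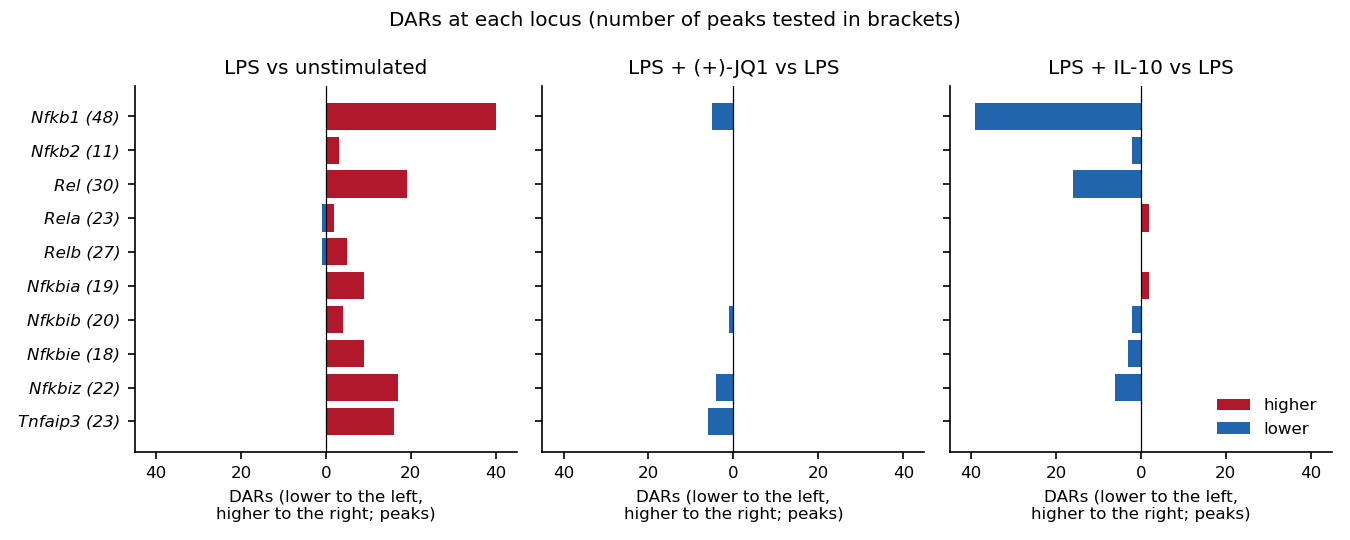
For each of the 10 genes, the number of peaks that gained (bars to the right) or lost (bars to the left) accessibility in each comparison, with the number of peaks measured at the locus beside the gene name. LPS raised 40 peaks at Nfkb1 and 2 at Rela. IL-10 lowered 39 peaks at Nfkb1 and 16 at Rel, and (+)-JQ1 lowered 6 at Tnfaip3.

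To ask which NF-kappaB loci were remodeled by LPS itself, LPS-stimulated BMDMs were compared with unstimulated BMDMs. Chromatin opened at many peaks of both the subunit and the inhibitor genes, but unevenly among the loci. Of the 241 peaks, 124 (51.5%) were differentially accessible regions (DARs) with higher accessibility after LPS and 2 (0.83%) were DARs with lower accessibility, whereas 11.7% of all tested peaks were higher and 10.2% were lower. A DAR is a peak with an adjusted p below 0.05, from the quasi-likelihood test of edgeR after Benjamini-Hochberg adjustment over all 194230 tested peaks, and an absolute log2 fold-change above 0.5. The median log2 fold-change was 0.68 over the member peaks and -0.03 over all tested peaks. At the subunit loci 69 of 139 peaks were higher and at the inhibitor loci 55 of 102 were. In bulk libraries, a larger share of cells with an open site and a more open site in each cell cannot be told apart.

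Among the subunit genes, Nfkb1 and Rel accounted for most of the gains. At Nfkb1, 40 of 48 peaks were higher, from -21.7 kb to +115.3 kb of the start, with a median log2 fold-change of 1.63 among them. The intronic peak at +20.8 kb (chr3:135333007-135334498) measured 3.81, 4.45 and 3.18 CPM in the 3 unstimulated libraries and 27.3, 26.0 and 26.2 CPM in the 3 LPS libraries. The groups were far apart and the LPS libraries nearly equal, with a log2 fold-change of 2.80 ± 0.16 (SE; adjusted p = 4.6e-29). At the wide intronic peak +48.0 kb (chr3:135302917-135310027), the unstimulated libraries held 9.97, 9.83 and 8.55 CPM and the LPS libraries 51.0, 48.6 and 43 CPM, a gain of 2.33 ± 0.16 on the log2 scale (adjusted p = 2.7e-24). Gains reached past the far end of the gene into the interval before Manba, where the intergenic peak +110.8 kb (chr3:135241477-135245995) went from 14.5, 14.4 and 16.1 CPM to 62.2, 58.7 and 58.2 CPM, again with no overlap. CPM stands for counts in a peak scaled to a fixed total of reads in peaks, after TMM scaling. Every ± beside a log2 fold-change is a standard error, with 3 libraries per group. It was derived from the fit of all 18 libraries, as the absolute log2 fold-change divided by the square root of the F statistic.

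At Rel, 19 of 30 peaks were higher, with a median log2 fold-change of 1.51 among them. The peaks with the greatest gains were at +40.6 kb (chr11:23629065-23631582), over an exon of the neighboring gene Pus10, and at +17.0 kb (chr11:23653024-23654867), over a coding exon of Rel. Rel +40.6 kb rose from 3.41, 4.78 and 4.71 CPM to 25.9, 29.5 and 23.7 CPM, a log2 fold-change of 2.60 ± 0.17 (adjusted p = 8.7e-26). Rel +17.0 kb, one of whose kappaB matches is printed above, rose from 5.22, 5.71 and 4.82 CPM to 27.7, 34.0 and 33.6 CPM. Every LPS library was above every unstimulated library at both peaks. Because Pus10 lies within the extended window, which of the genes such a peak serves is not known from these data.

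The other subunit genes changed less. At Nfkb2, 3 of 11 peaks were higher, all in the promoter class. The wide peak +8.7 kb (chr19:46382951-46392834), which covers the end of Nfkb2 and part of Psd, rose from 29.4, 29.3 and 31.7 CPM to 96.3, 90.7 and 75.7 CPM (1.54 ± 0.14, adjusted p = 1.9e-17). At Relb 5 of 27 peaks were higher, by 0.54 to 0.95 on the log2 scale, and at Rela 2 of 23 were, by 0.55 and 0.59. These were 18.5% and 8.7% of the peaks at each locus, against 11.7% of all tested peaks. The 2 peaks with lower accessibility were at Rela +18.5 kb, in the neighboring gene Sipa1, and at Relb -9.0 kb, in Clptm1, with log2 fold-changes of -0.91 ± 0.30 and -0.92 ± 0.36. Both were weak, with at most 2.54 CPM in any unstimulated library, and neither was stable. Rela +18.5 kb was no DAR without replicate 2 or replicate 3, and Relb -9.0 kb was none with any 1 replicate left out or with DESeq2.

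Among the inhibitor genes, Tnfaip3 and Nfkbia held the sites with the greatest gains of all. At Tnfaip3, 16 of 23 peaks were higher with a median log2 fold-change of 2.06 among them, and the largest gains lay in the intergenic stretch just downstream of the gene. Tnfaip3 +17.6 kb (chr10:18717076-18718565) measured 2.21, 3.02 and 2.47 CPM without stimulation and 31.0, 27.4 and 25.3 CPM with LPS, a log2 fold-change of 3.43 ± 0.19 (adjusted p = 1.2e-29). Its neighbor at +15.8 kb (chr10:18719025-18720385) went from 2.61, 2.03 and 3.01 CPM to 25.2, 23.2 and 20.7 CPM (3.17 ± 0.18, adjusted p = 8.8e-29). In this stretch the unstimulated chromatin was close to closed, and no LPS library came near the unstimulated range.

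At Nfkbia, which encodes IkappaB-alpha, 9 of 19 peaks were higher with a median log2 fold-change of 1.69 among them. No peak overlapped the region from 1000 bases upstream to 100 bases downstream of an annotated start of Nfkbia, and the closest was at +0.8 kb, in a coding exon. The largest gains were at intergenic peaks downstream of this short gene. Nfkbia +8.1 kb (chr12:56584705-56586420), whose central sequence with its kappaB match is printed above, rose from 4.35, 5.71 and 7.51 CPM to 49.1, 51.0 and 50.4 CPM (3.09 ± 0.17, adjusted p = 1.2e-30), and Nfkbia +5.6 kb rose from 5.49, 6.04 and 5.97 CPM to 44.4, 45.3 and 42.5 CPM. The LPS libraries lay within a narrow range at both.

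At Nfkbiz 17 of 22 peaks were higher, from -24.6 to +49.1 kb, with a median log2 fold-change of 1.27 among them. The widest of them, +31.9 kb (chr16:55802574-55811724), rose from 21.6, 20.3 and 24.8 CPM to 105, 116 and 113 CPM (2.33 ± 0.14, adjusted p = 2.2e-27). At Nfkbie 9 of 18 peaks were higher by 0.59 to 1.29, with +1.2 kb in a coding exon rising from 12.8, 17.1 and 19.1 CPM to 35.0, 34.9 and 30.3 CPM. At Nfkbib, the locus with the smallest response among the inhibitors, 4 of 20 peaks were higher. The median log2 fold-change over all peaks of Nfkbib was -0.15. By edgeR 0 of the 102 peaks at inhibitor loci were DARs with lower accessibility, DESeq2 called 0 as well, and at an unadjusted p below 0.05 there was 1, at Nfkbib.

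**Figure D2:**
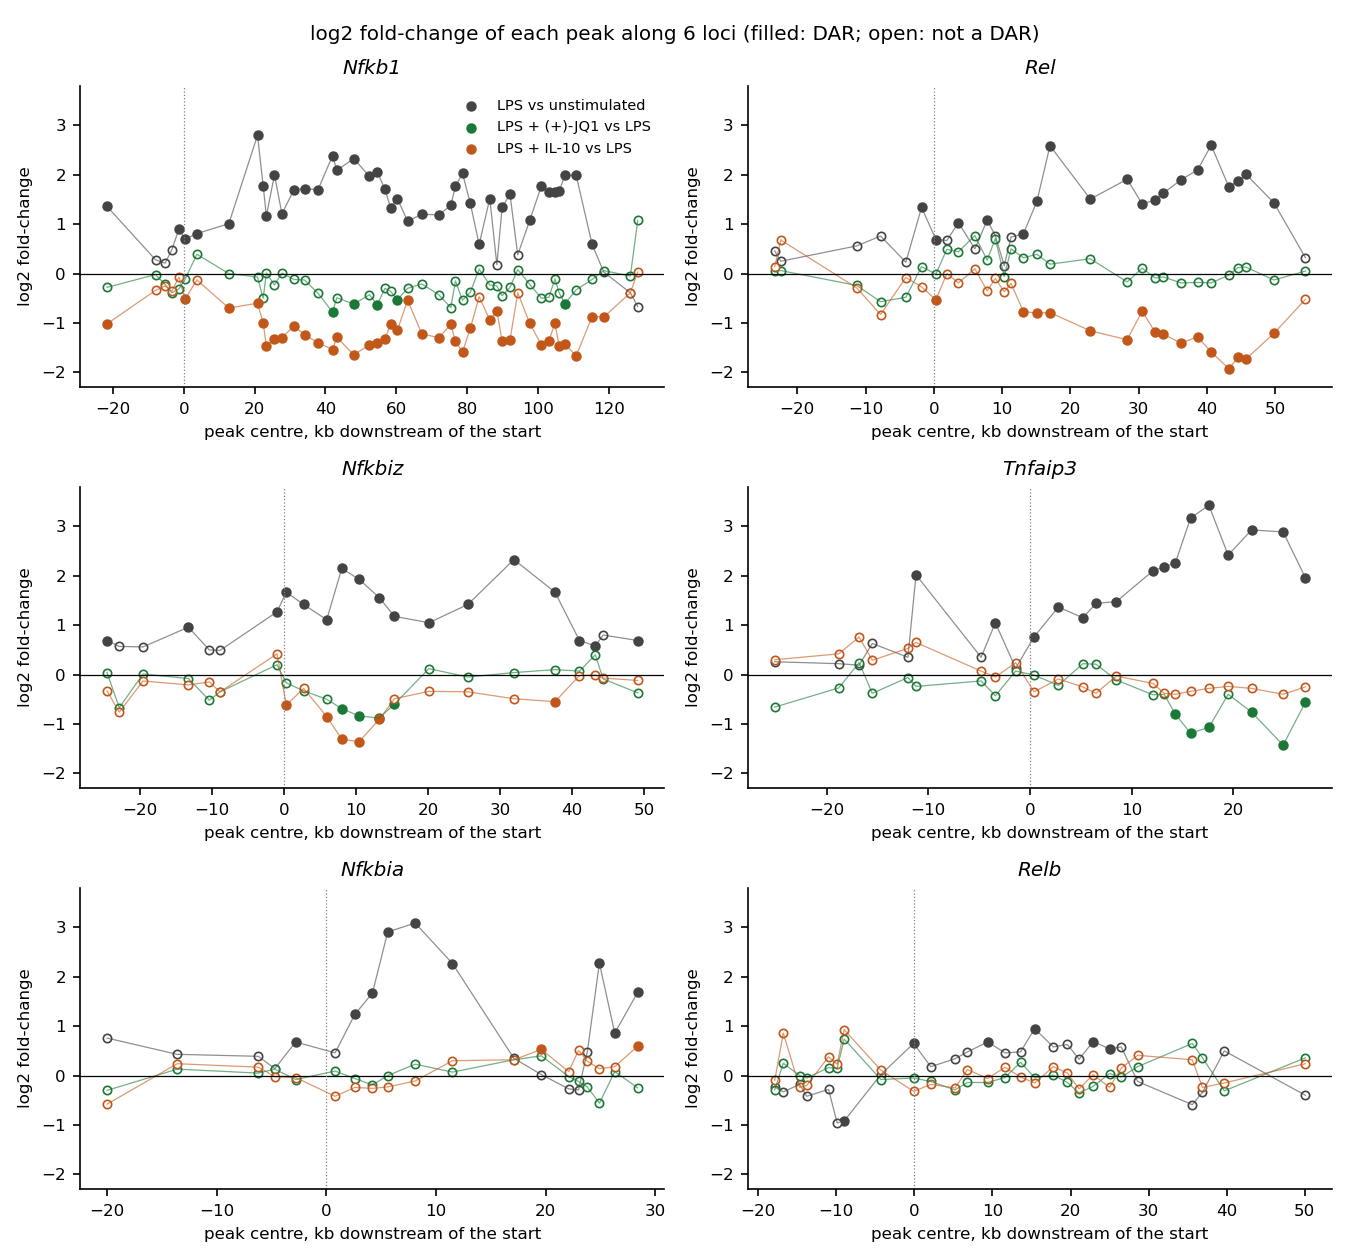
The log2 fold-change (vertical axis) of each peak against the distance in kb of its center from the gene's start (horizontal axis) at 6 loci, for LPS against unstimulated (dark grey), LPS + (+)-JQ1 against LPS (green) and LPS + IL-10 against LPS (orange). Filled points are DARs and open points are not. The orange points of Nfkb1 and Rel lie far below 0, down to -1.67 and -1.93, while the green points that are filled at Tnfaip3 lie between +14.3 and +27.1 kb and reach -1.43.

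To ask how IL-10 changed the LPS response at these loci, LPS + IL-10 was compared with LPS. IL-10 left the loci of the subunit genes Nfkb1 and Rel much less accessible. At Tnfaip3 0 of 23 peaks were DARs, and at Nfkbia 2 of 19 (10.5%) were higher and 0 lower. Of the 241 peaks, 68 (28.2%) were lower and 4 (1.66%) were higher, against 4.52% lower and 4.26% higher among all tested peaks, and the median log2 fold-change was -0.25 against -0.01. Nfkb1 held 39 of the 68 and Rel 16, and outside these loci 13 of 163 peaks (7.98%) were lower. By role, 57 of 139 peaks at subunit loci were lower and 11 of 102 at inhibitor loci. With each replicate number left out in turn, 54 to 67 peaks were lower.

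The losses at Nfkb1 ran through the gene and beyond both of its ends, from -21.7 to +118.6 kb, with a median log2 fold-change of -1.29 among the 39 peaks. Which gene the peaks beyond its ends serve is not known from these data. Nfkb1 +48.0 kb measured 18.9, 14.4 and 12.2 CPM in LPS + IL-10, against 43 to 51.0 CPM in LPS and 8.55 to 9.97 CPM without stimulation, a log2 fold-change of -1.65 ± 0.15 against LPS (adjusted p = 1e-15). Nfkb1 +110.8 kb measured 21.5, 17.6 and 17.1 CPM, just above its unstimulated range of 14.4 to 16.1 CPM (-1.67 ± 0.14, adjusted p = 5.3e-17). At both sites the LPS + IL-10 libraries stood between the unstimulated and the LPS libraries and overlapped neither. The response was not uniform along the gene, since Nfkb1 +20.8 kb kept 18.4, 19.3 and 14.9 CPM (-0.60 ± 0.14, adjusted p = 0.00091), well above its unstimulated 3.18 to 4.45 CPM.

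At Rel the 16 lower peaks lay between +0.3 and +49.8 kb, with a median log2 fold-change of -1.22. Rel +43.2 kb (chr11:23627243-23628234), in an intron of Pus10, measured 2.21, 3.19 and 2.68 CPM without stimulation, 9.74, 9.09 and 8.48 CPM with LPS and 2.54, 2.09 and 2.53 CPM with LPS + IL-10. Its LPS + IL-10 libraries fell within or below the unstimulated range, and the log2 fold-change of -1.93 ± 0.20 against LPS (adjusted p = 1.6e-13) was the lowest among all 241 peaks. Rel +40.6 kb was at 11, 6.72 and 8.50 CPM (-1.59 ± 0.15, adjusted p = 1.4e-14), which remained above every unstimulated library. Rel +17.0 kb, with 19.9, 18.1 and 16.9 CPM, lost less (-0.79 ± 0.13).

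The remaining losses with IL-10 were at Nfkbiz (6 peaks), Nfkbie (3), Nfkb2 (2) and Nfkbib (2). At Nfkbiz they included the intronic peak +10.4 kb (chr16:55827376-55829854), which was at 10.6, 11.2 and 12.5 CPM with LPS and at 4.77, 4.34 and 4.23 CPM with LPS + IL-10 (-1.36 ± 0.18, adjusted p = 6.4e-09). At Nfkbib the peaks +11.5 kb and +7.8 kb lost 0.99 and 1.18 on the log2 scale. At Tnfaip3, Nfkbia, Rela and Relb 0 peaks were DARs with lower accessibility, by edgeR or by DESeq2, and at an unadjusted p below 0.05 there were 4, 1, 0 and 1. Without replicate 1, 1 Tnfaip3 peak was a DAR. The 4 peaks with higher accessibility were 2 at Nfkbia, among them +28.4 kb with 13.6, 13.8 and 14.0 CPM in LPS and 20.7, 21.4 and 20.9 CPM in LPS + IL-10 (0.60 ± 0.14, adjusted p = 0.0014), and 2 at Rela, among them -15.7 kb with 3.77, 3.45 and 5.79 CPM in LPS and 9.14, 7.76 and 8.27 CPM in LPS + IL-10 (0.97 ± 0.19, adjusted p = 6.1e-05). Rela -15.7 kb, in the interval next to Kat5, was also higher with IL-10 alone (0.87 ± 0.19, adjusted p = 0.00073).

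**Figure D3:**
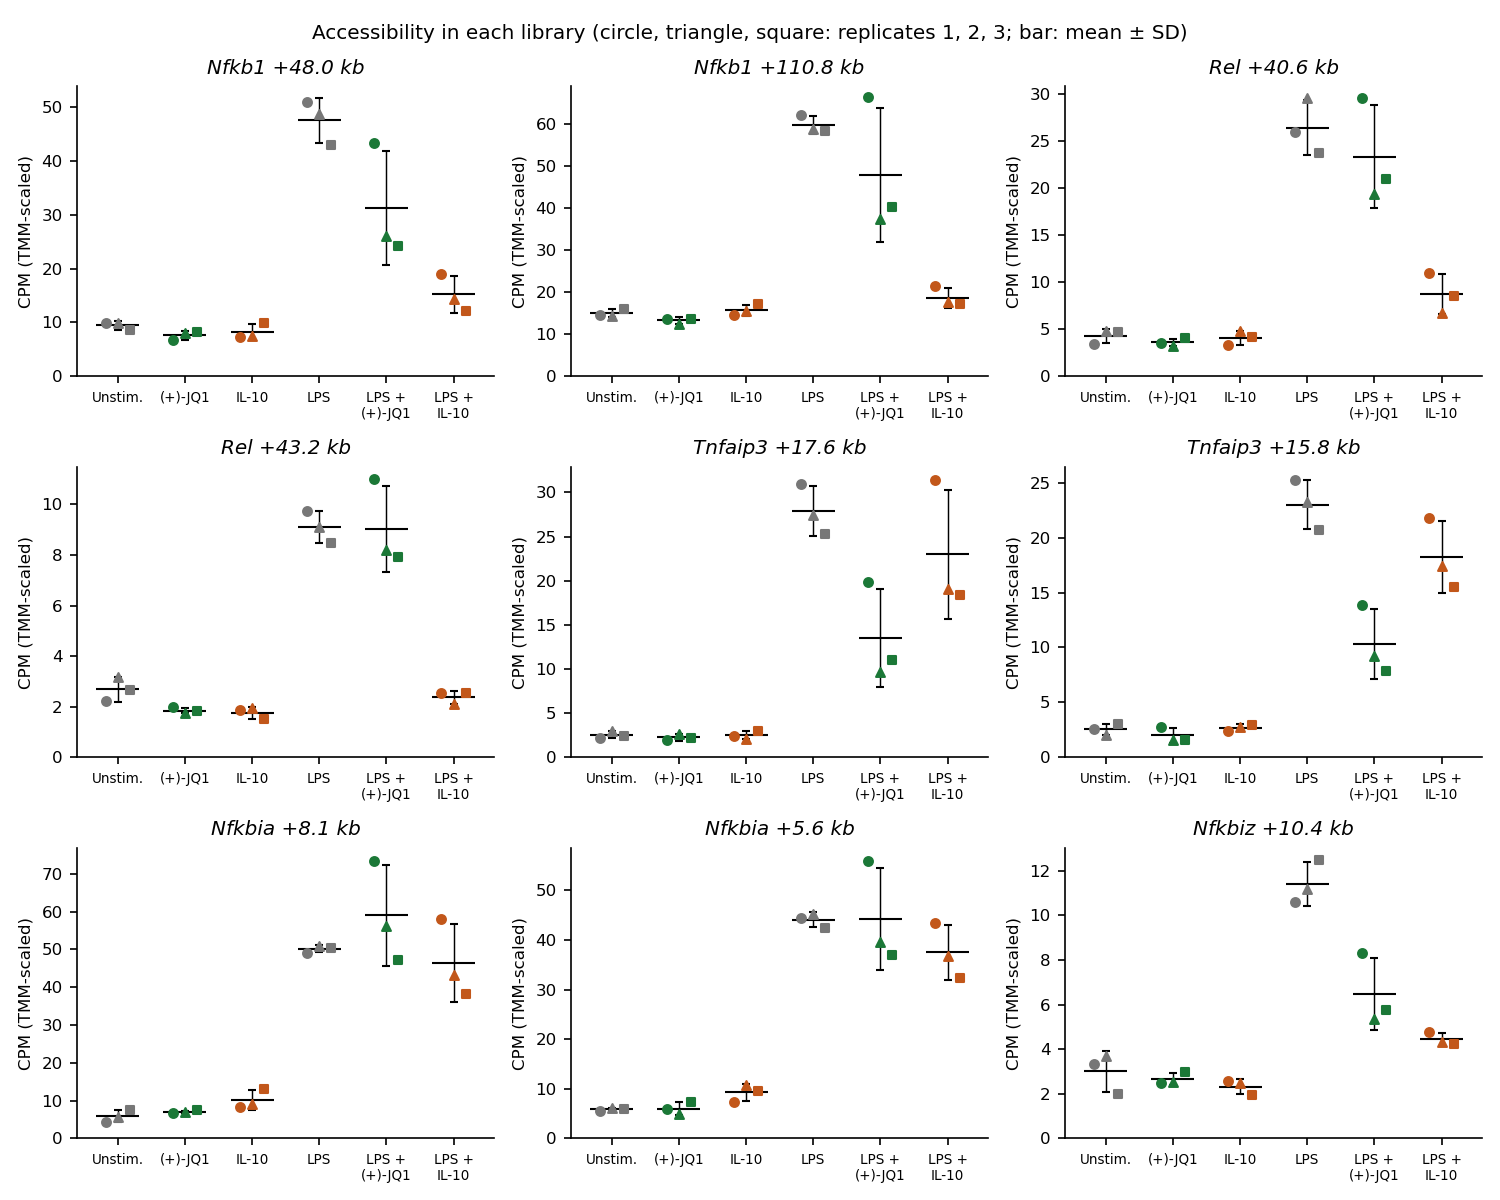
Accessibility in CPM (vertical axis, from 0) of 9 peaks in each of the 18 libraries by group, with replicates 1, 2 and 3 as circles, triangles and squares and bars at the mean ± SD of 3 libraries. At Rel +43.2 kb the LPS + IL-10 libraries sit at 2.09 to 2.54 CPM and the LPS + (+)-JQ1 libraries at 7.91 to 11 CPM. At Tnfaip3 +15.8 kb the LPS + (+)-JQ1 libraries, at 7.87 to 13.9 CPM, are the lowest of the LPS-stimulated groups.

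To ask how BET inhibition changed the LPS response, LPS + (+)-JQ1 was compared with LPS. Losses were few, and lay at the end of Tnfaip3 and downstream of it, within Nfkbiz, and within Nfkb1 up to its end, save for 1 at Nfkbib. Of the 241 peaks 16 (6.64%) were lower, against 3.48% of all tested peaks, and 0 were higher, against 1.74%. In edgeR's test 18 peaks were higher at an unadjusted p below 0.05 and 0 at an adjusted p below 0.05, and DESeq2 called 0. Without replicates 1, 2 and 3 in turn, 22, 3 and 7 peaks were lower, against 2.89%, 1.54% and 1.85% of all tested peaks, so this count depended on which libraries entered. Within the replicate numbers, the median log2 ratio over the member peaks was 0.01 in replicate 1, -0.21 in replicate 2 and -0.14 in replicate 3.

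At Tnfaip3, 6 of 23 peaks were lower, between +14.3 and +27.1 kb, by 0.56 to 1.43 on the log2 scale. All 6 had gained accessibility with LPS, and 6, 3 and 4 peaks at the locus were lower without replicates 1, 2 and 3. Tnfaip3 +17.6 kb measured 19.9, 9.71 and 11 CPM in LPS + (+)-JQ1, below the 25.3 to 31.0 CPM of LPS and above the 2.21 to 3.02 CPM of the unstimulated group (-1.07 ± 0.16, adjusted p = 2.5e-07). At +15.8 kb the values were 13.9, 9.22 and 7.87 CPM (-1.19 ± 0.16, adjusted p = 5e-09), and at the weaker peak +24.9 kb (chr10:18710185-18711016) they were 2.46, 1.69 and 1.63 CPM against 5.28, 5.79 and 4.12 CPM in LPS (-1.43 ± 0.25, adjusted p = 1.1e-05). The LPS + (+)-JQ1 and LPS libraries did not overlap at these 3 peaks. In the upstream part of the locus and at the Tnfaip3 promoter no peak was lower.

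At Nfkbiz 4 intragenic peaks between +8.0 and +15.3 kb were lower, by 0.60 to 0.88. Nfkbiz +10.4 kb measured 8.30, 5.35 and 5.78 CPM (-0.84 ± 0.18, adjusted p = 0.00047), and Nfkbiz +13.2 kb 6.69, 3.93 and 4.92 CPM against 8.08, 10.1 and 10.1 CPM in LPS. At Nfkb1 5 of 48 peaks were lower, by 0.53 to 0.78. Among them Nfkb1 +48.0 kb, with 43.3, 26.1 and 24.2 CPM, overlapped the LPS libraries through replicate 1 (-0.62 ± 0.14). The intronic peak +42.0 kb (chr3:135311966-135312991), printed above, had values of 6.57, 5.84 and 4.90 CPM in LPS, 3.69, 3.33 and 3.18 CPM in LPS + (+)-JQ1 and 1.78, 2.38 and 1.84 CPM with LPS + IL-10, with log2 fold-changes against LPS of -0.78 ± 0.23 and -1.54 ± 0.25 (adjusted p = 0.028 and 1.3e-06). The calls with (+)-JQ1 at Nfkbiz and Nfkb1 were lost without replicate 2, when 0 peaks were lower at either locus, and came to 1 at each without replicate 3 and to 5 and 9 without replicate 1. The last of the 16 was Nfkbib +34.6 kb, in Fbxo17 (-0.72 ± 0.17), a call lost without replicate 1 (-0.58) and without replicate 2 (-0.74). At Rel, Rela, Relb, Nfkb2, Nfkbia and Nfkbie 0 peaks were DARs with lower accessibility, by edgeR or by DESeq2, and at an unadjusted p below 0.05 there were 0, 1, 1, 1, 1 and 4.

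Both treatment comparisons share the LPS libraries, so they were not set against each other through LPS. Instead the treated groups were compared directly, LPS + (+)-JQ1 against LPS + IL-10, a comparison added after the data had been seen. Of the 241 peaks 63 (26.1%) were higher with (+)-JQ1 and 9 (3.73%) were higher with IL-10, against 3.43% and 4.67% of all tested peaks. The 63 were 36 at Nfkb1, 18 at Rel, 4 at Nfkbib, 3 at Nfkbiz and 1 each at Nfkbia and Tnfaip3. With a replicate number left out, 28 to 30 peaks at Nfkb1 and 16 to 17 at Rel were higher with (+)-JQ1. Rel +43.2 kb, with 11, 8.19 and 7.91 CPM in LPS + (+)-JQ1, differed by 1.90 ± 0.20 on the log2 scale (adjusted p = 3.9e-13), and Nfkb1 +110.8 kb, with 66.3, 37.3 and 40.2 CPM, by 1.35 ± 0.14 (adjusted p = 1.5e-12). Both groups stood apart at these sites in every library.

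The 9 peaks with the opposite difference were 5 at Tnfaip3 and 2 each at Nfkbia and Rela. At Tnfaip3 +15.8 kb the LPS + IL-10 libraries held 21.8, 17.4 and 15.5 CPM, all above the LPS + (+)-JQ1 libraries, with a log2 difference of -0.85 ± 0.16 for (+)-JQ1 against IL-10 (adjusted p = 3.2e-05). At Tnfaip3 +17.6 kb the LPS + IL-10 values of 31.4, 19.1 and 18.4 CPM overlapped those of LPS + (+)-JQ1 because of replicate 1 (-0.79 ± 0.16, adjusted p = 0.00017). Without replicates 1, 2 and 3 in turn, 6, 3 and 2 peaks at Tnfaip3 were lower with (+)-JQ1 than with IL-10. At Nfkbia +28.4 kb the LPS + (+)-JQ1 libraries held 15.6, 10.0 and 9.77 CPM, below every LPS + IL-10 library (-0.85 ± 0.14, adjusted p = 4.6e-06). Within the gene, Nfkbia +0.8 kb differed the other way, with 45.2, 50.5 and 39.3 CPM in LPS + (+)-JQ1 and 35.9, 30.8 and 27.8 CPM in LPS + IL-10 (a log2 difference of 0.51). At +8.1 kb, with 73.4, 56.3 and 47.3 CPM and 58.0, 43.3 and 38.2 CPM, the difference of 0.34 ± 0.14 (95% interval, not adjusted, 0.05 to 0.62) did not pass the adjusted test (adjusted p = 0.13).

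**Figure D4:**
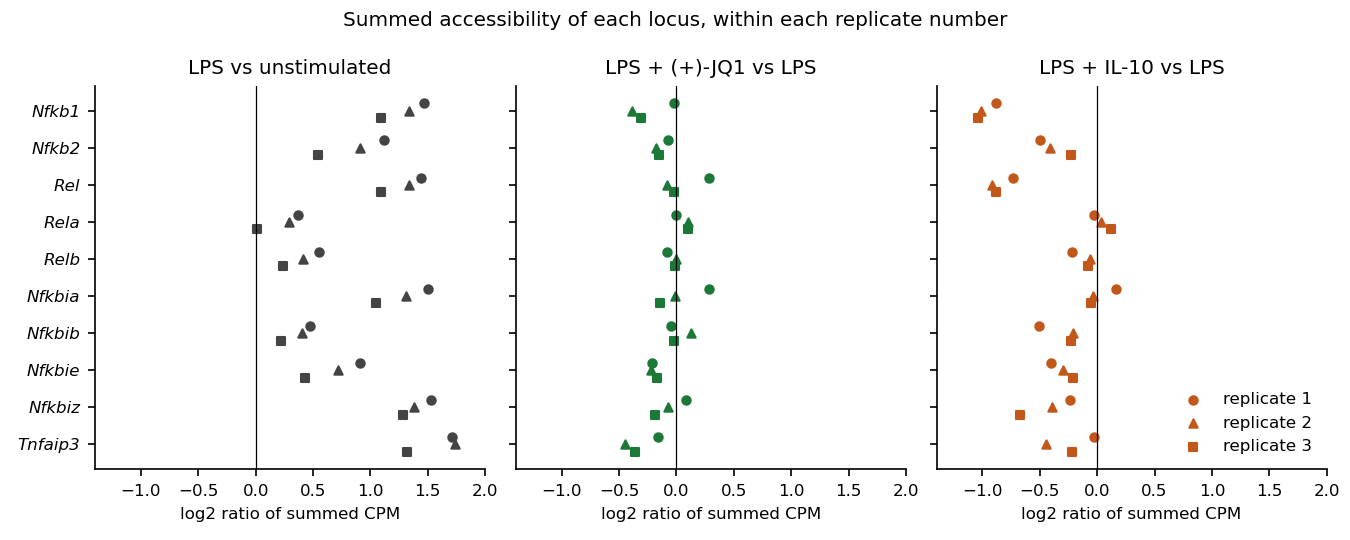
The log2 ratio (horizontal axis) of the accessibility summed over all peaks of a locus, one row for each gene and one point for each replicate number, for LPS against unstimulated, LPS + (+)-JQ1 against LPS and LPS + IL-10 against LPS. In the IL-10 panel the points of Nfkb1 lie between -1.04 and -0.88 and those of Rel between -0.92 and -0.73, left of every other gene.

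Summing the peaks of a locus gives one level per gene and library, in which wide and strong peaks weigh most. The Nfkb1 locus held 288 ± 24.7 CPM without stimulation, 706 ± 33.9 with LPS, 603 ± 105 with LPS + (+)-JQ1 and 361 ± 37.2 with LPS + IL-10 (mean ± SD, n = 3). The Rel locus held 141 ± 16.2, 342 ± 10.0, 358 ± 45.4 and 191 ± 11.9 CPM in the same order, Tnfaip3 95.1 ± 10.9, 285 ± 15.2, 229 ± 31.5 and 244 ± 40.1 CPM, and Nfkbia 144 ± 18.7, 350 ± 9.84, 364 ± 65.0 and 357 ± 39.7 CPM. LPS raised the sum most at Tnfaip3, by 1.32 to 1.74 on the log2 scale within the replicates, and least at Rela, by 0.01 to 0.37. With (+)-JQ1 the sum at Tnfaip3 was lower than with LPS in all 3 replicates, with log2 ratios of -0.16, -0.45 and -0.36, and with IL-10 they were -0.03, -0.45 and -0.22, a range that overlaps that of (+)-JQ1.

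Peaks at the annotated starts of Nfkb1, Nfkb2, Rel, Rela, Relb, Nfkbiz and Tnfaip3 were already accessible without stimulation and rose with LPS by 0.59 to 1.67 on the log2 scale, while the Nfkbib promoter peak, with a log2 fold-change of 0.49 ± 0.13, stayed just under the fold-change limit. With offsets fitted to the trend with signal strength (loess offsets), the gains were smaller, from 0.15 at Rela and Relb to 1.31 at Nfkbiz +0.3 kb, and at Nfkbiz alone did they stay past the limit. Nfkbiz +0.3 kb rose most, from 12.4, 14.5 and 19.2 CPM to 52.8, 45.4 and 49.3 CPM (1.67 ± 0.14, adjusted p = 6.2e-18). The Rela promoter rose least among those called, from 29.6, 35.2 and 46.5 CPM to 57.6, 54.4 and 55.9 CPM (0.59 ± 0.14, adjusted p = 0.0004). Of the 64 member peaks in the promoter class, 35 (54.7%) were higher with LPS, against 14.3% of all promoter peaks, and of the 177 in the distal class 89 (50.3%) were, against 11.1% of all distal peaks.

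IL-10 lowered the LPS-stimulated promoters of Nfkb1 (-0.52 ± 0.14), Nfkb2 (-0.51 ± 0.14), Rel (-0.53 ± 0.14) and Nfkbiz +0.3 kb (-0.62 ± 0.14), with adjusted p values between 0.00066 and 0.0061. These changes were close to the fold-change limit, and with loess offsets they were -0.34, -0.21, -0.22 and -0.51, of which that of Nfkbiz alone stayed past the limit. The Rela, Relb, Tnfaip3 and Nfkbib promoters had log2 fold-changes of -0.20, -0.32, -0.35 and -0.26 with IL-10 and were not DARs. With (+)-JQ1 none of the peaks at these annotated starts was a DAR against LPS, and their log2 fold-changes ran from -0.17 to 0.26. By class, IL-10 lowered 11 of 14 promoter-class and 28 of 34 distal-class peaks at Nfkb1 and 2 of 3 and 14 of 27 at Rel. Over all members it lowered 29.7% of the promoter class and 27.7% of the distal class. Of all tested peaks in these classes, 3.95% and 4.65% were lower.

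**Figure D5:**
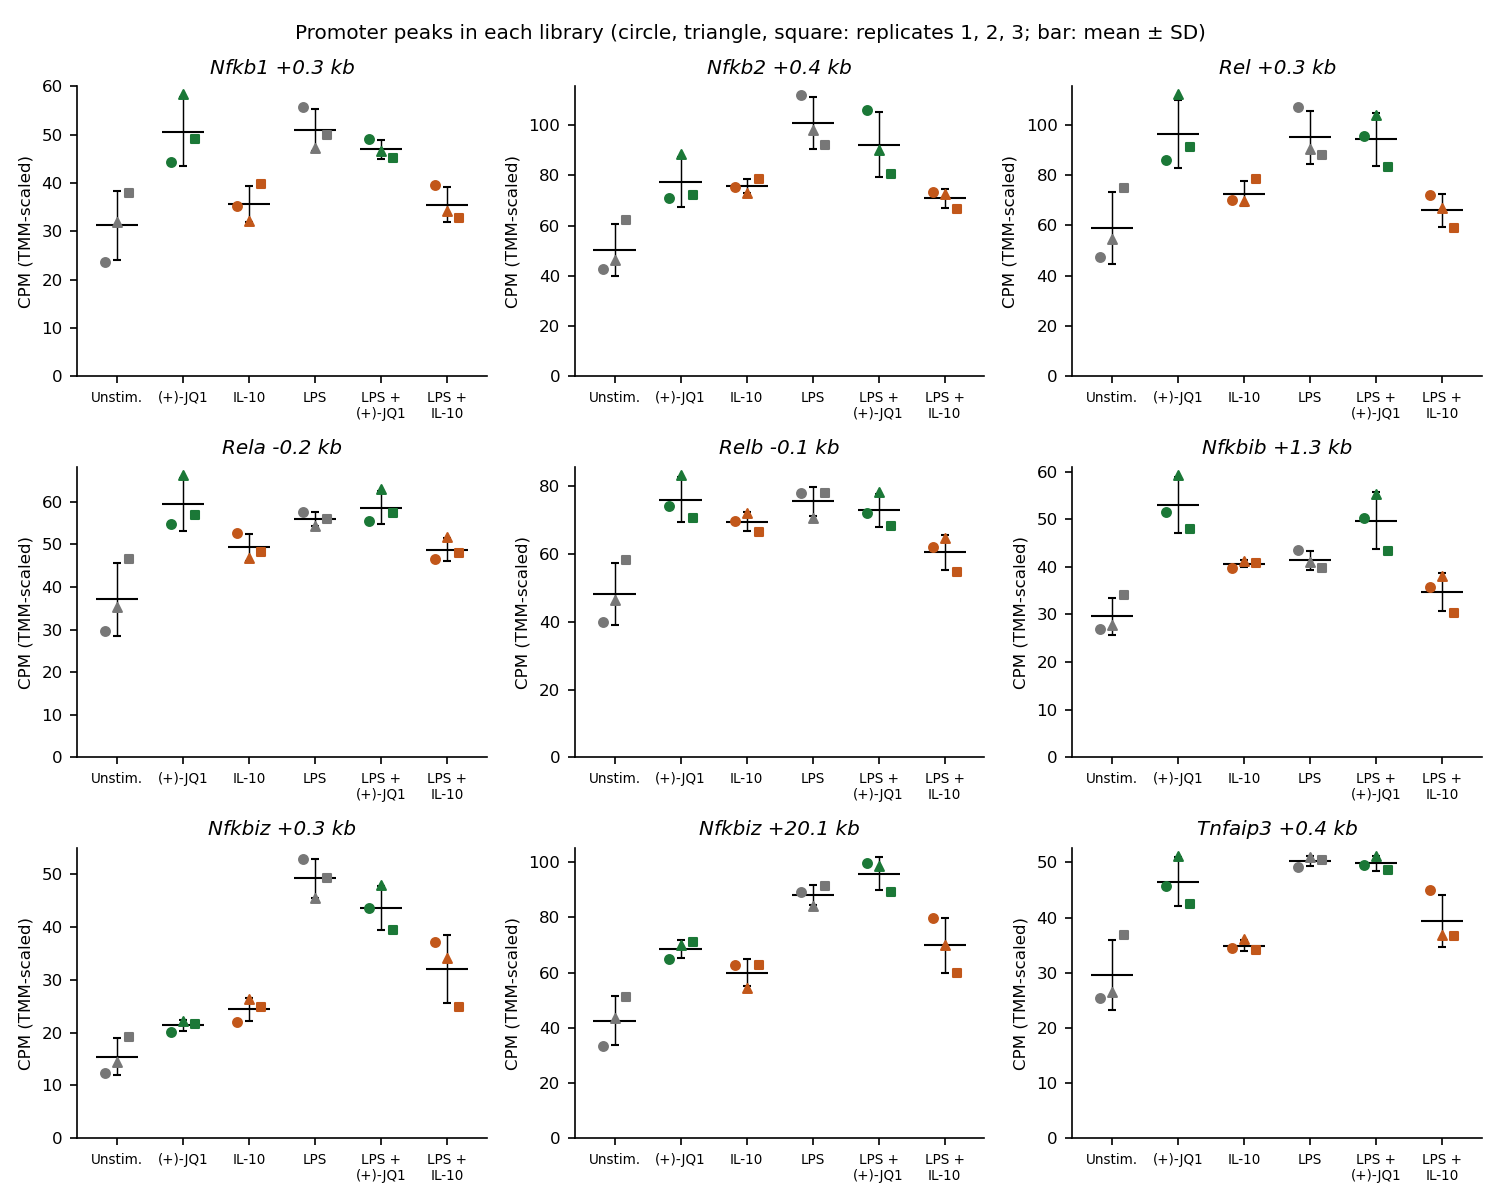
Accessibility in CPM (vertical axis, from 0) of the peaks at annotated starts in each of the 18 libraries, with replicates 1, 2 and 3 as circles, triangles and squares and bars at the mean ± SD of 3 libraries. The unstimulated group has the lowest mean at each start. At Nfkb1 its libraries lie at 23.7 to 38.0 CPM and the (+)-JQ1 libraries, without LPS, at 44.4 to 58.3 CPM.

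To ask what the treatments did without LPS, (+)-JQ1 and IL-10 were each compared with the unstimulated group. Of the 241 peaks, 24 (9.96%) were higher and 8 (3.32%) lower with (+)-JQ1, against 7.85% and 3.15% of all tested peaks, so the NF-kappaB loci were close to the background. With IL-10 19 (7.88%) were higher and 6 (2.49%) lower, against 5.16% and 3.5%. Those higher included 5 of 22 peaks at Nfkbiz (22.7%), 4 of 19 at Nfkbia (21.1%) and 4 of 23 at Rela (17.4%). The 19 higher calls came to 4 with scaling by total counts, to 3 with loess offsets and to 12, 2 and 33 without replicates 1, 2 and 3. The 6 lower calls came to 0, 0 and 5 without these replicates. Most promoters of the family were among the peaks that rose with (+)-JQ1, by 0.62 to 0.84 on the log2 scale at Nfkb1, Nfkb2, Rel, Rela, Relb, Nfkbib, Nfkbiz +20.1 kb and Tnfaip3. In the promoter class 15 of 64 member peaks (23.4%) rose, against 22.9% of all promoter peaks. These gains depended on the scaling, as the promoter changes with (+)-JQ1 were -0.22 to 0.19 with loess offsets, and 3 member peaks were then higher in place of 24, and 4 were with scaling by total counts. Without replicates 1, 2 and 3 in turn, 17, 4 and 31 member peaks were higher and 2, 2 and 5 lower with (+)-JQ1.

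Outside the promoters, Rel +17.0 kb and Nfkbiz +43.2 kb stayed DARs with loess offsets, with scaling by total counts and with each replicate left out. Rel +17.0 kb rose with (+)-JQ1 from 5.22, 5.71 and 4.82 CPM to 9.42, 9.94 and 9.83 CPM (0.89 ± 0.16, adjusted p = 1.4e-05, and 0.51 with loess offsets). Nfkbiz +43.2 kb, intergenic, rose with both treatments, from 4.28, 6.04 and 7.78 CPM to 12.9, 11.6 and 13.1 CPM with (+)-JQ1 and to 11.4, 10.5 and 14.7 CPM with IL-10 (1.04 ± 0.17 and 1.00 ± 0.16). Tnfaip3 +21.8 kb (chr10:18713202-18714191) fell with both, from 2.21, 1.87 and 2.30 CPM to 1.37, 1.19 and 1.05 CPM and to 1.08, 1.02 and 1.36 CPM (-0.82 ± 0.29 and -0.87 ± 0.28), at a level under 3 CPM, and was no DAR in either comparison with any 1 replicate left out. The unstimulated libraries are shared by both comparisons.

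To test whether a treatment changed the response to LPS itself, the interaction terms were fitted, that is the difference between the log2 response to LPS with and without the treatment. With IL-10, 69 of 241 peaks (28.6%) responded less to LPS and 0 responded more, against 5.9% and 2.01% of all tested peaks. In the promoter class 26 of 64 members (40.6%) responded less, against 17% of all promoter peaks. In the distal class 43 of 177 (24.3%) did, against 3.33% of all distal peaks. In edgeR's test 5 peaks responded more at an unadjusted p below 0.05, and DESeq2 called 1. Nfkb1 held 30 of the 69, Nfkbiz 10 and Rel 9. The largest was at Nfkb1 +42.0 kb (-1.94 ± 0.40, adjusted p = 0.0005), followed by Nfkb1 +110.8 kb (-1.74 ± 0.21, adjusted p = 2.2e-09). The count was 42 with loess offsets, 42 with scaling by total counts and 18 without replicate 2.

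With (+)-JQ1, 13 of 241 peaks (5.39%) responded less to LPS and 1 (0.415%) responded more, against 3.18% and 0.649% of all tested peaks. Of the 13, 11 were in the promoter class, where 11.2% of all promoter peaks did the same and 17.2% of the members did. With loess offsets 1 peak responded less, with scaling by total counts 2 did, and 2, 0 and 22 did without replicates 1, 2 and 3. The cause was not tested. The downstream Tnfaip3 peaks were not among them, with an interaction of -0.87 ± 0.30 at +17.6 kb (adjusted p = 0.079) and -0.83 ± 0.29 at +15.8 kb (adjusted p = 0.083). The peak that responded more was Rel +22.9 kb (chr11:23643173-23652923), which held 11.6, 11.5 and 12.4 CPM without stimulation, 27.8, 39.5 and 34.1 CPM in LPS, 8.77, 8.75 and 8.99 CPM with (+)-JQ1 and 52.2, 33.8 and 39.3 CPM with both (0.72 ± 0.21, adjusted p = 0.028). Its LPS and LPS + (+)-JQ1 libraries overlapped, and the call was lost without replicate 1 (0.41), without replicate 2 (1.00) and with only the groups compared (0.71).

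Other genes of the pathway were measured from a list of 22 kinases, adaptors and feedback regulators with 513 peaks. LPS raised 125 (24.4%) and lowered 41 (7.99%) of them, against 11.7% and 10.2% of all tested peaks. In LPS-stimulated cells (+)-JQ1 raised 15 (2.92%) and lowered 25 (4.87%), against 1.74% and 3.48%. Of the 15 raised, 7 were at the kinase-complex gene Ikbkg, where 0 of 21 peaks were lower. Of 23 peaks at Ikbke, which encodes an inducible kinase related to the IkappaB kinases, 18 were higher with LPS, 7 were lower with (+)-JQ1 and none was a DAR with IL-10, and without replicate 2 the first 2 counts were 11 and 3. Of the peaks at Cyld, a deubiquitinase gene that restrains the pathway, 9 of 20 were higher with LPS, and 8 were lower with (+)-JQ1 (5 without replicate 2) and 3 with IL-10 (2 without any 1 replicate). None of 12 peaks at Chuk, which encodes the kinase subunit IKK-alpha, was a DAR with LPS, and at Tab1, an activator of the kinase TAK1, 14 of 23 were lower. With IL-10 in LPS-stimulated cells, 41 (7.99%) of the 513 were higher and 19 (3.7%) lower. Among all tested peaks these shares were 4.26% and 4.52%, and among the members 1.66% and 28.2%. Of the 41, 34 were at feedback genes, with 16 of 28 at Tnip3, 7 of 26 at Tnip1 and 7 of 25 at Bcl3, which encode partners of A20 and an atypical IkappaB protein. With a replicate left out these were 12 to 17, 3 to 5 (3 without replicate 1 and without replicate 3) and 2 to 5 (2 without replicate 2, 4 without replicate 3). The difference between these lists was not tested.

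The kappaB consensus was found in the central 300 bases of 20 of the 241 member peaks (8.3%) and of 5.98% of all peaks. At promoter-class peaks it was found in 10 of 64 (15.6%) and in 8.02% of all, and at distal-class peaks in 10 of 177 (5.65%) and in 5.51% of all. An AP-1 pattern, TGANTCA, was found in 10.4% of the members and 12.1% of all peaks, GGAAGT in 23.7% and 24.8%, and the interferon response pattern ISRE in 4.56% and 4.4%. Both strands were searched, and matches of different patterns may overlap. These shares describe letters in a fixed window and not bound sites.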

How the data were processed

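ATAC-seq was run on 18 libraries of BMDMs, 3 in each of 6 groups. Per the study's methods, the authors processed reads with PEPATAC, aligned them with Bowtie2 to mm9, called peaks with MACS2 in each sample, merged them into one set and classed each peak as promoter (1000 bases upstream to 100 downstream of a start) or distal. The authors deposited raw read counts per peak, which were used as they stand, and 6 columns of per-sample values that match no sample used here were left out. Totals ran from 12020526 to 25908198 counts, so weak peaks, under about 3 CPM, are measured with less precision.

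Counts were fitted in edgeR 4.0.16 (R 4.3.3), with TMM scaling, the filterByExpr filter and all 18 libraries in one quasi-likelihood fit (glmQLFit and glmQLFTest) without a block, and p-values were adjusted by Benjamini-Hochberg over 194230 peaks. A DAR had an adjusted p below 0.05 and an absolute log2 fold-change above 0.5. CPM values are TMM-scaled. Peaks were assigned to genes of GENCODE M1 and read from mm9 sequence. Alternatives were DESeq2 1.42.0, its size factors, scaling by total counts, loess offsets from limma 3.58.1, no filter, lane or replicate as a term, and only the groups compared. The script was tested on simulated data. The peaks named for each gene are the peak at its start, up to 3 with the largest changes after LPS, and the one with the largest change among the DARs of every other planned comparison and interaction. Peaks given only as ends of a range, and the sequences without a kappaB match, were chosen after their values were seen. The comparison of LPS + (+)-JQ1 with LPS + IL-10 was added after the data were seen.

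Samples with the same replicate number were taken as pairs because the series' design text calls the samples biologically matched. The pairs entered only the ratios within replicates and the alternative fit with a replicate term, not the main fit. Their deviations from the group means correlated at a mean r of 0.00572 over 45 pairs, against -0.00286 over 90 other pairs. All libraries of replicate 1, and the unstimulated, (+)-JQ1 and IL-10 libraries of replicate 2, were on lane 5, and the rest were on lane 6. No libraries held identical values. The members and lists were chosen with earlier results of these data known.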

Additional observations from a re-analysis of the deposited data

Results flagged for a closer look

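The results below were singled out because the response to LPS differed between treated and untreated cells by a test of the difference itself, the interaction term of edgeR's quasi-likelihood fit. At the gene starts the log2 difference with (+)-JQ1 was -0.81 at Nfkb1 +0.3 kb, -0.75 at Nfkb2 +0.4 kb, -0.72 at Rel +0.3 kb, -0.61 at Rela -0.2 kb, -0.71 at Relb -0.1 kb, -0.64 at Nfkbiz +0.3 kb and -0.66 at Tnfaip3 +0.4 kb. With IL-10 at gene starts it was -0.71 at Nfkb1 +0.3 kb, -1.10 at Nfkb2 +0.4 kb, -0.83 at Rel +0.3 kb, -0.61 at Rela -0.2 kb, -0.85 at Relb -0.1 kb, -0.72 at Nfkbib +1.3 kb, -0.82 at Nfkbiz +20.1 kb and -0.58 at Tnfaip3 +0.4 kb. Elsewhere, the peak of each locus with the largest difference had, with (+)-JQ1, -0.66 at Nfkb1 +63.2 kb, -0.64 at Nfkbia +0.8 kb, -1.24 at Nfkbib +34.6 kb, -0.73 at Nfkbie +8.5 kb, 0.72 at Rel +22.9 kb and -0.66 at Rela +26.0 kb. With IL-10 such peaks had -1.94 at Nfkb1 +42.0 kb, -1.10 at Nfkb2 +8.7 kb, -0.90 at Nfkbia +5.6 kb, -1.01 at Nfkbib +34.6 kb, -1.06 at Nfkbie +8.5 kb, -1.38 at Nfkbiz +8.0 kb, -1.50 at Rel +40.6 kb, -0.81 at Rela +26.0 kb, -0.70 at Relb +25.0 kb and -0.84 at Tnfaip3 +6.5 kb. Some lie in neighboring genes, with Nfkbie +8.5 kb in Slc35b2, Rela +26.0 kb in Sipa1, Relb +25.0 kb in Clasrp and Nfkbib +34.6 kb in Fbxo17. Each of these is in the promoter class and closest to the start of another gene. The single positive value, at Rel +22.9 kb, did not keep its call without replicate 1 (0.41) or without replicate 2 (1.00). Most negative calls with (+)-JQ1 were no more stable. Of all 13 at the member peaks, 1, 0 and 12 were kept without replicates 1, 2 and 3. With loess offsets 1 was kept, with total counts 2. Of the 69 with IL-10, 52, 18 and 53 were kept without replicates 1, 2 and 3, and 42 with loess offsets. With the replicate block, Nfkb1 +63.2 kb (-0.66), Nfkbia +0.8 kb (-0.64), Nfkbiz +0.3 kb (-0.65) and Rela -0.2 kb (-0.62) did not keep their calls with (+)-JQ1, nor Tnfaip3 +0.4 kb (-0.58) with IL-10. At Nfkbib +34.6 kb both treatments raised the peak without LPS, from 4.42, 5.00 and 6.47 CPM to 7.39, 7.98 and 7.48 CPM with (+)-JQ1 and to 7.96, 7.83 and 9.44 CPM with IL-10. Nfkbia +5.6 kb held 5.49, 6.04 and 5.97 CPM unstimulated and 7.37, 10.8 and 9.63 CPM with IL-10 alone. It held 44.4, 45.3 and 42.5 CPM in LPS and 43.5, 36.7 and 32.4 CPM in LPS + IL-10, where 0 Nfkbia peaks were DARs with lower accessibility than in LPS.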

How the results depend on the processing

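Among the comparisons of LPS-stimulated groups, the counts of DARs at the NF-kappaB loci changed little with scaling or tool, and those against unstimulated cells depended on scaling. With LPS 124 peaks were higher (111 to 129 with a replicate left out), and the count of 2 lower was 1 with DESeq2, with its size factors and with only the groups compared, 9 with total counts, and 0 to 2 with a replicate left out. With LPS + (+)-JQ1, 0 peaks were higher (0 to 1) and 16 lower (3 to 22). With LPS + IL-10, 4 were higher (3 to 3) and 68 lower (54 to 67). With (+)-JQ1 alone, 24 were higher (4 with total counts, 3 with loess offsets, 4 to 31 with a replicate left out) and 8 lower (DESeq2 3, size factors 5, total counts 45, loess 17, only the groups compared 5, and 2 to 5). With IL-10 alone, 19 were higher (total counts 4, loess 3, 33 with no limit on the fold-change, and 2 to 33) and 6 lower (total counts 17, loess 11, only the groups compared 2, and 0 to 5). For the interaction with (+)-JQ1, 1 responded more (total counts 4, loess 4, only the groups compared 0, and 0 to 1) and 13 less (DESeq2 23, total counts 2, loess 1, only the groups compared 3, and 0 to 22). For the interaction with IL-10, 0 responded more (DESeq2 1, total counts 5, loess 2, only the groups compared 1, and 0 to 0) and 69 less (total counts 42, loess 42, and 18 to 56). In the direct comparison, 63 were higher with (+)-JQ1 (47 to 54) and 9 lower (4 to 10). With scaling by total counts the median change over all peaks, in log2 units, was -0.26 with LPS, -0.37 with (+)-JQ1 and -0.26 with IL-10, where it was -0.03, -0.09 and -0.05 with TMM.

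With loess offsets the sign turned at these gene starts. With (+)-JQ1 alone the log2 fold-changes were -0.22 at Nfkb2 +0.4 kb, -0.12 at Nfkbiz +20.1 kb, -0.14 at Rel +0.3 kb, -0.03 at Rela -0.2 kb and -0.14 at Relb -0.1 kb. The interaction with (+)-JQ1 was 0.02 at Rel +0.3 kb and 0.00 at Rela -0.2 kb, and that with IL-10 was 0.01 at Rel +0.3 kb, 0.08 at Rela -0.2 kb and 0.03 at Tnfaip3 +0.4 kb. The cause was not tested.

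Of 139 values for single peaks, 134 kept their call and direction with the replicate block, 137 with lane as a term, 128 with DESeq2, 96 with total counts, 83 with loess offsets and 99, 74 and 121 without replicates 1, 2 and 3. With the replicate block, 125 peaks were higher and 2 lower with LPS, 0 and 18 with LPS + (+)-JQ1, 4 and 68 with LPS + IL-10, 24 and 9 with (+)-JQ1, 19 and 6 with IL-10, 1 and 9 in the interaction with (+)-JQ1, 0 and 66 in that with IL-10, and 63 and 9 in the direct comparison. The block moved no count by over 1.5 times and ended the calls of 5 single values.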
